A study of Mus musculus with 9 samples.

Results

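The transcripts examined here are 10 genes of the early response to stimulation: the zinc finger transcription factor genes Egr1, Egr2 and Egr3, the orphan nuclear receptor genes Nr4a1, Nr4a2 and Nr4a3, the immediate early genes Ier2 and Ier3, and Nab1 and Nab2, which encode corepressors of the EGR proteins. They were taken by symbol from the GENCODE M21 annotation of the count tables. All 10 were found among the 55536 annotated genes, and all 10 passed the filter on low counts. The samples are labelled as quadriceps muscle of C57BL/6 mice aged 6 weeks that had lost a volume of muscle by surgery (volumetric muscle loss). They were measured by bulk RNA sequencing. Of the 9 libraries, 5 are labelled Il17ra-/-, a knockout of a receptor subunit for interleukin-17 cytokines, and 4 are labelled wild type (WT). The sample characteristics give saline as the material and a harvest 1 week after surgery for every library, but the protocol for extraction speaks of PCL and of tissue taken 6 weeks after surgery; which of them holds is not settled by the labels. No label gives the part of the gene removed, the cells in which it is removed, or a litter, day or run, so that a batch and the genotype cannot be told apart. The series text speaks of triplicates of animals, and no label ties a library to an animal.

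EGR and NR4A genes are silent or low in resting cells and are transcribed within minutes of growth factors, stretch, injury or calcium and cyclic AMP signals, without the need for new protein. EGR proteins bind GC-rich promoter sites, and NAB1 and NAB2 dock on EGR1, EGR2 and EGR3 and repress their targets, so that NAB2, itself induced by EGR1, closes a feedback loop. NR4A receptors bind DNA without a known natural ligand, and in skeletal muscle they respond to exercise and beta-adrenergic signals and act on genes of sugar and fat metabolism.

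The libraries held 31.3 to 46.4 M counts, and 1513 to 202053 counts stood behind the values of Egr1, Ier2, Ier3 and Nr4a1, with 211 to 6382 counts behind those of the other 6 genes. Il17ra itself, on chromosome 6, stood at 199.8, 185, 181, 284 and 191 CPM (counts per M counts of the library, scaled with TMM factors) in Il17ra-/- replicates 1 to 5, against 75.9, 107, 85.4 and 119 CPM in WT replicates 1 to 4. The targeted gene was thus higher in every library labelled Il17ra-/- (log2 fold change 1.11, SE 0.17, edgeR adjusted p = 0.00208), so its counts do not bear out the label. Which exons the knockout removes is not given, and counts were read per gene only. Each direction is given by the label alone. On principal components, WT replicate 2 lay apart on the first (34.3% of variance), as did Il17ra-/- replicate 1 on the second (17.4%). Of the defining markers, the muscle actin gene Acta1 averaged 1643 CPM in the libraries labelled Il17ra-/- and 856 CPM in those labelled WT. The 7 myofibre genes summed to 2579 to 3470 CPM in libraries labelled Il17ra-/- and 927 to 2319 CPM in those labelled WT. The 6 genes of fibro-adipogenic progenitors summed to 36664 to 50889 CPM and 42592 to 47377 CPM, respectively, far above the fibre genes. Sums over different genes do not measure shares of cells, and the tissue label names no cell type. Which cells hold the early response transcripts was not tested. Ptprc, the marker of all leukocytes, did not exceed 0.461 CPM in any library, and the 8 lymphocyte markers summed to at most 0.868 CPM in the libraries labelled Il17ra-/- and 0.657 CPM in those labelled WT.

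Of the 10 genes, 4 fell in the libraries labelled Il17ra-/-, namely Nr4a3, Egr2, Ier3 and Nr4a1, and none rose past the threshold (edgeR's quasi-likelihood test, Benjamini-Hochberg adjusted p under 0.05 over 16039 tested genes). Over all tested genes 3.06% were called, 1.71% as lower and 1.35% as higher. The median log2 fold change of the 10 genes was −0.61, beside a median of 0.00 (−0.0027) over all tested genes, and 8 of the 10 had a negative value. For 6 of the 10, all libraries labelled Il17ra-/- lay below all libraries labelled WT, which held for 4.56% of all tested genes, with 4.63% the other way round and 9.18% in either direction; the 6 were the 4 called genes with Nr4a2 and Egr1. In a bulk sample, fewer cells of a type and less RNA per cell cannot be told apart. The p-values measure the spread between these libraries.

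**Figure D1:**
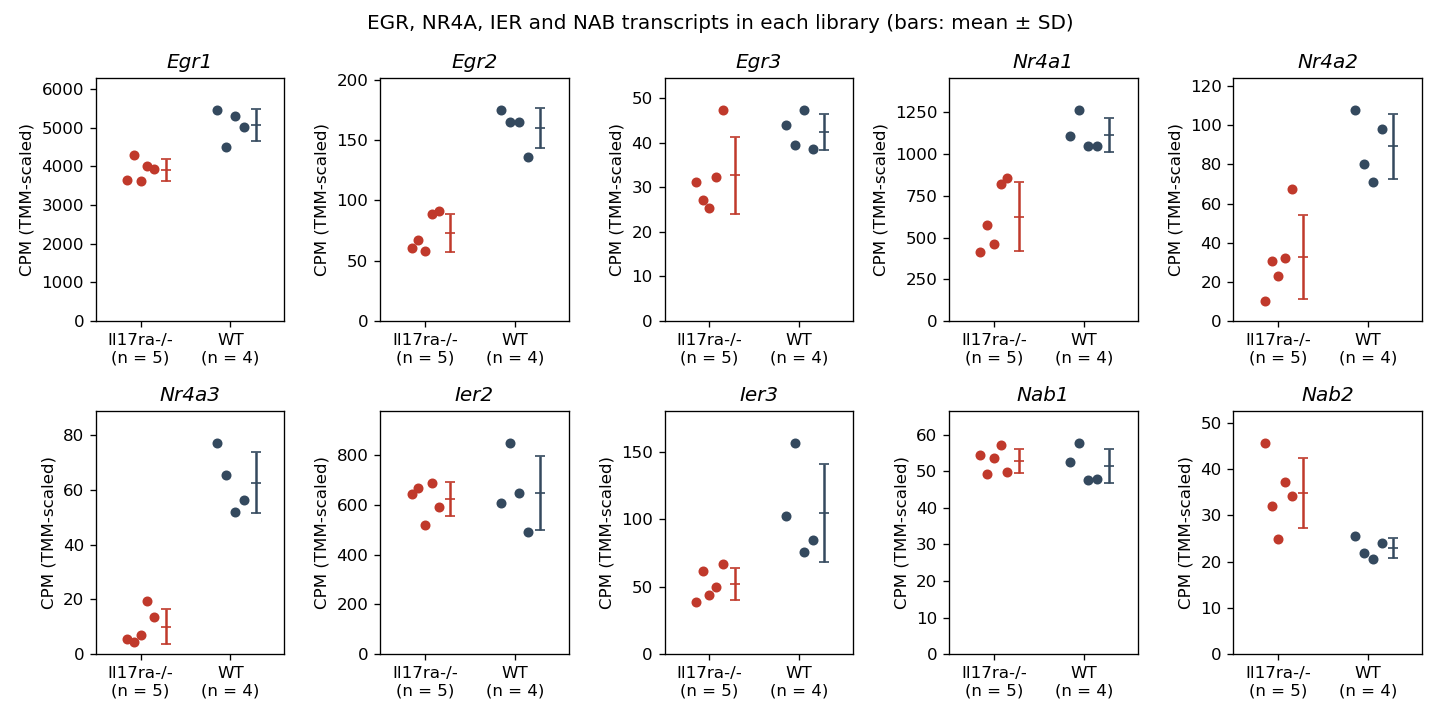
Level of each of the 10 transcripts in every library (vertical axis, CPM, starting at 0), with libraries labelled Il17ra-/- in red on the left and those labelled WT in dark blue on the right, and the mean ± SD beside each group. Nr4a3 lies at 4.49 to 19.6 CPM in the libraries labelled Il17ra-/- and at 51.8 to 77.2 CPM in those labelled WT, while the groups overlap for Egr3, Ier2, Nab1 and Nab2.

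Of the 10 genes, the NR4A receptor gene Nr4a3 fell furthest. Nr4a3 (NOR1; chromosome 4, 48045153 to 48086447, plus strand, GRCm38) stood at 5.65, 4.49, 6.88, 19.6 and 13.5 CPM in Il17ra-/- replicates 1 to 5, against 77.2, 65.5, 51.8 and 56.4 CPM in WT replicates 1 to 4. The highest of the libraries labelled Il17ra-/-, replicate 4, held less than the lowest labelled WT, replicate 3. Nr4a3 averaged 10.01 ± 6.38 CPM (SD, n = 5) in libraries labelled Il17ra-/- and 62.7 ± 11.2 CPM (SD, n = 4) in those labelled WT, a mean level 0.160 times as high, with a log2 fold change of −2.65 (SE 0.36, edgeR adjusted p = 9.18e-04). The call held under all 18 alternative fits, with log2 fold changes from −3.04 to −2.46.

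Nr4a1 (NUR77; chromosome 15, 101254269 to 101274795, plus strand), the most abundant of the receptors, had 415, 574, 459.5, 819.6 and 858 CPM in Il17ra-/- replicates 1 to 5, against 1107, 1262, 1045 and 1049.7 CPM in WT replicates 1 to 4. The libraries labelled Il17ra-/- formed a wide range below the narrow WT range, with replicates 4 and 5 nearest to it. It averaged 625 ± 204 CPM (SD, n = 5) in libraries labelled Il17ra-/- and 1116 ± 102 CPM (SD, n = 4) in those labelled WT (log2 fold change −0.84, SE 0.20, edgeR adjusted p = 0.0345). This call is close to the threshold. The edgeR adjusted p became 0.0603 with scaling by library totals only, 0.0681, 0.0558, 0.0670 and 0.0629 without WT replicate 1, 2, 3 or 4, and 0.0711, 0.0930 and 0.0949 without Il17ra-/- replicate 1, 2 or 3, while the log2 fold change stayed between −1.02 and −0.65 over all 18 alternatives.

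Nr4a2 (NURR1; chromosome 2, 57106830 to 57124003, minus strand), best known for its role in dopamine neurons, had 10.02, 30.8, 22.8, 32.1 and 67.5 CPM in Il17ra-/- replicates 1 to 5, against 108, 80.2, 70.8 and 98.0 CPM in WT replicates 1 to 4. The groups did not overlap, but Il17ra-/- replicate 5 reached almost the lowest WT library and replicate 1 lay far below the others. Its log2 fold change of −1.45 (SE 0.37) missed the threshold (edgeR adjusted p = 0.0517). The gene was called under 8 of 18 alternatives, among them the fits without Il17ra-/- replicate 5 (log2 fold change −1.89, edgeR adjusted p = 0.00448) and without Il17ra-/- replicate 1 (−1.22, edgeR adjusted p = 0.0475).

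Among themselves, the receptors differed in how far they stood apart between the labels. Within each library, the level of one gene was set against another as the difference of log2(CPM + 0.5), and the groups were compared by a two-sided exact permutation test over the 9 libraries, whose smallest possible p is 0.0159, and 10 pairs of genes were compared. Nr4a3 minus Nr4a1 was −6.04 ± 0.53 (SD, n = 5) in libraries labelled Il17ra-/- and −4.15 ± 0.22 (SD, n = 4) in those labelled WT. The fall of Nr4a3 thus exceeded that of Nr4a1 by 1.88 on the log2 scale (exact permutation p = 0.0159, adjusted over the 10 pairs p = 0.0317), with no overlap between the groups. Nr4a2 minus Nr4a1 differed by −0.77 and Nr4a3 minus Nr4a2 by −1.11, and neither passed (exact permutation p = 0.0476 and adjusted p = 0.0529 for each). Of the summed CPM of the receptors, Nr4a1 made up 91.4% to 96.4% in the libraries labelled Il17ra-/- and 85.7% to 89.7% in those labelled WT.

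The promoter windows of the NR4A genes are shown because, for each receptor, all libraries labelled Il17ra-/- lay below all labelled WT. Nr4a2 was not called. Each window runs from 250 bases before to 50 bases after a RefSeq start site (GRCm38.p6), 5′ to 3′ on the gene's strand. Capitals mark matches to TGACG, the half-site of the cyclic AMP response element bound by CREB, on either strand, so that CGTCA is the same half-site read on the other strand. In the Egr2 window they also mark a CArG box, the site of serum response factor. The windows are chr4:48045055-48045354 for Nr4a3 and chr15:101266596-101266895 for Nr4a1, both on the plus strand, chr2:57123954-57124253 on the minus strand for Nr4a2, and chr10:67537619-67537918 on the plus strand for Egr2.
Nr4a3: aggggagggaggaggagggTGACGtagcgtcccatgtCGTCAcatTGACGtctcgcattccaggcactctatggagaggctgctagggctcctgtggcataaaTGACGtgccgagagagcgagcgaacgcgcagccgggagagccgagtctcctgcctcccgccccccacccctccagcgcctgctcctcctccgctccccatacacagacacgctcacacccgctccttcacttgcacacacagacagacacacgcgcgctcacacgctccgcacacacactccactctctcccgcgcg
Nr4a1: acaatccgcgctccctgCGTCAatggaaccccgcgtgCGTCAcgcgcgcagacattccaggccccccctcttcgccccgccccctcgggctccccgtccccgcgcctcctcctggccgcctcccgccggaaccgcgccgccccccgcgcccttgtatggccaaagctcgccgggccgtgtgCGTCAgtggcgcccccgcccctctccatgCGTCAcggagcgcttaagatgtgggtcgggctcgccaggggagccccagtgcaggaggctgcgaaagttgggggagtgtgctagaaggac
Nr4a2: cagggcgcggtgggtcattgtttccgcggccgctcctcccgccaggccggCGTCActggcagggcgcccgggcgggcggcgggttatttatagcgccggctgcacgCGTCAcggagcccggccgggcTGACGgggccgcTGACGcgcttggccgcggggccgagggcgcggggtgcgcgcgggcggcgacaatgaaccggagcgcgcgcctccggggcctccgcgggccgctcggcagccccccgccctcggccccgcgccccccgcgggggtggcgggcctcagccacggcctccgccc
Egr2: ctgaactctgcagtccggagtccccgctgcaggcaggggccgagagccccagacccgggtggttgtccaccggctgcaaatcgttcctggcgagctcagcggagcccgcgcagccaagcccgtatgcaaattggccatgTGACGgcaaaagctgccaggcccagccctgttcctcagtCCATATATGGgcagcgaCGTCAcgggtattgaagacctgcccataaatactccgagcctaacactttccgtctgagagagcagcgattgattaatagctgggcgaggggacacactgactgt

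Each NR4A window held 4 half-sites, counted on both strands. Of the 32851 windows of all genes in the RefSeq table, 20.8% held at least 1 half-site and 0.231% held 4 or more. In Nr4a1 the matches began 233, 213, 69 and 40 bases before the start site, and in Nr4a3 they began 231, 213, 205 and 147 bases before it. No NR4A window held the full palindrome TGACGTCA, which 1.79% of all windows held. Of the 7 members with a window, 5 held a half-site, beside 23.0% of all genes with a window. Nab1, not called, held 1, while Ier3, called as lower, and Nab2, not called, held none. A match to the NF-κB site was held by 4 of the 7 (Egr2, Ier3, Nab1 and Nr4a1), beside 9.55% of all genes with a window. A match is a description of the letters and not of binding. Whether any match bears on the levels was not tested.

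**Figure D2:**
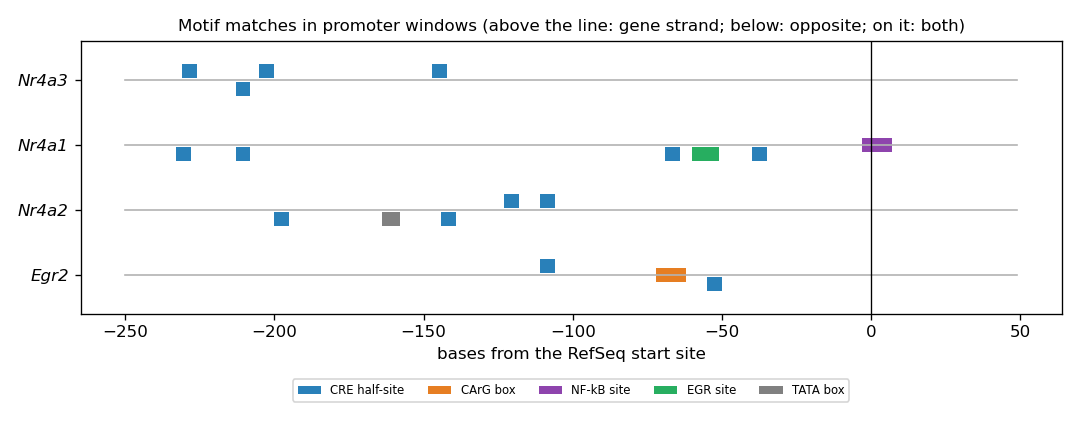
Motif matches in the promoter windows of Nr4a3, Nr4a1, Nr4a2 and Egr2 by distance from the RefSeq start site (horizontal axis, bases); boxes above a line match on the gene's strand, boxes below it on the opposite strand, and boxes on it on both. Each NR4A gene has 4 half-sites of the cyclic AMP response element, and Egr2 has 2 of them around a CArG box.

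Among the EGR genes, Egr2 fell and the others did not pass. Egr2 (KROX20; chromosome 10, 67535475 to 67542188, plus strand), needed for myelination by Schwann cells, had 60.8, 67.4, 58.3, 89.0 and 91.3 CPM in Il17ra-/- replicates 1 to 5, against 175, 165, 165 and 136 CPM in WT replicates 1 to 4. All 5 libraries labelled Il17ra-/- lay well below the lowest WT library. The means were 73.3 ± 15.7 CPM (SD, n = 5) in libraries labelled Il17ra-/- and 160.2 ± 16.6 CPM (SD, n = 4) in those labelled WT, and the log2 fold change of −1.13 (SE 0.15, edgeR adjusted p = 7.93e-04) stayed called under all 18 alternatives. Since Schwann cells make Egr2, their markers are given beside it. The 9 Schwann cell and myelin genes summed to 644 to 776 CPM in libraries labelled Il17ra-/- and 889 to 1135 CPM in those labelled WT. Of the 9, 1 fell (Pmp22, −0.48, edgeR adjusted p = 0.0229), a call held under 11 of 18 alternatives, and the rest did not pass. Over all tested genes 1.71% were called as lower. Sox10, the defining factor of the Schwann cell lineage, had a log2 fold change of 0.10 (edgeR adjusted p = 0.843). Their part in the level of Egr2 was not tested.

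Egr1 (chromosome 18, 34859823 to 34864984, plus strand), the founding member of the family, was the most abundant of the 10 genes. It had 3637, 4299, 3628, 4010.4 and 3919 CPM in Il17ra-/- replicates 1 to 5, against 5452, 4508, 5296 and 5016 CPM in WT replicates 1 to 4. The groups did not overlap, though Il17ra-/- replicate 2 and WT replicate 2 lay close. The log2 fold change of −0.38 (SE 0.10) did not pass (edgeR adjusted p = 0.0610). Without WT replicate 2, its lowest WT library, the log2 fold change was −0.43 and passed (edgeR adjusted p = 0.0135).

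Egr3 (chromosome 14, 70077203 to 70082614, plus strand), which the mouse needs to form muscle spindles, had 31.1, 27.1, 25.4, 32.3 and 47.3 CPM in Il17ra-/- replicates 1 to 5, against 44.0, 39.4, 47.3 and 38.6 CPM in WT replicates 1 to 4. Replicates 1 to 4 labelled Il17ra-/- lay below the WT range, and replicate 5 lay at its top. The log2 fold change was −0.37 (SE 0.17, edgeR adjusted p = 0.280), with an approximate 95% interval of −0.70 to −0.05 that is too narrow with few libraries and not adjusted for the number of genes.

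The fall of Egr2 was larger than the difference in Egr1. Egr2 minus Egr1 within a library was −5.75 ± 0.27 (SD, n = 5) in libraries labelled Il17ra-/- and −4.98 ± 0.18 (SD, n = 4) in those labelled WT, a difference of −0.76 (exact permutation p = 0.0159, adjusted over the 10 pairs p = 0.0317). Egr3 minus Egr2 differed by 0.74, with the same exact permutation p of 0.0159 and adjusted p of 0.0317, and Egr3 minus Egr1 by −0.02 (exact permutation p = 0.889, adjusted p = 0.889). The CArG box of Egr2, printed above, lay 72 bases before the start site between 2 half-sites, and 1.63% of all windows held a CArG box. Egr2 has 5 windows in the RefSeq table, of which 4 held a CArG box; the one printed is the first with the most matches.

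Neither corepressor gene of the EGR proteins passed the test. Nab2 (chromosome 10, 127660918 to 127668568, minus strand), whose protein recruits a chromatin remodelling complex with CHD4, had 45.6, 32.0, 24.9, 37.1 and 34.2 CPM in Il17ra-/- replicates 1 to 5, against 25.4, 21.8, 20.5 and 24.1 CPM in WT replicates 1 to 4. In 4 of the 5 libraries labelled Il17ra-/- it was above the highest WT library, with replicate 3 within the WT range. Its log2 fold change of 0.60 (SE 0.16) did not pass (edgeR adjusted p = 0.0655), and it passed without Il17ra-/- replicate 3 (0.70, edgeR adjusted p = 0.0303). Nab1 (chromosome 1, 52457294 to 52500679, minus strand) had 54.5, 49.1, 53.6, 57.2 and 49.9 CPM in Il17ra-/- replicates 1 to 5, against 52.6, 57.7, 47.7 and 47.7 CPM in WT replicates 1 to 4. The ranges of Nab1 overlapped almost fully, and its log2 fold change was 0.04 (SE 0.10, edgeR adjusted p = 0.887), with an approximate 95% interval of −0.16 to 0.24.

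Set against Egr1 in the same library, Nab2 was higher in the libraries labelled Il17ra-/-. Nab2 minus Egr1 was −6.81 ± 0.33 (SD, n = 5) in libraries labelled Il17ra-/- and −7.76 ± 0.15 (SD, n = 4) in those labelled WT, a difference of 0.94 with no overlap (exact permutation p = 0.0159, adjusted over the 10 pairs p = 0.0317). Nab1 minus Egr1 differed by 0.42 and Nab2 minus Nab1 by 0.52, and neither passed (exact permutation p = 0.0476 and adjusted p = 0.0529 for each). The Nab2 counts are uncertain, because its exons overlap those of 3 genes on the opposite strand, and reads from such stretches are not counted for either gene when strand is not used. The antisense gene Gm16229 covers 1050 bp or 35.7% of the Nab2 exon length and held 0 to 13 counts; Nemp1 shares 151 bp and Stat6 shares 40 bp. Stat6 (−0.02, edgeR adjusted p = 0.934) and Nemp1 (0.29, edgeR adjusted p = 0.503) did not pass. No exon of the other 9 genes overlaps an exon of another annotated gene. The Nab1 window (GRCm38.p6) holds the EGR site GCGTGGGCG at 2 places, a site found in 0.612% of all windows. The Nab2 window holds no match to this site.

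**Figure D3:**
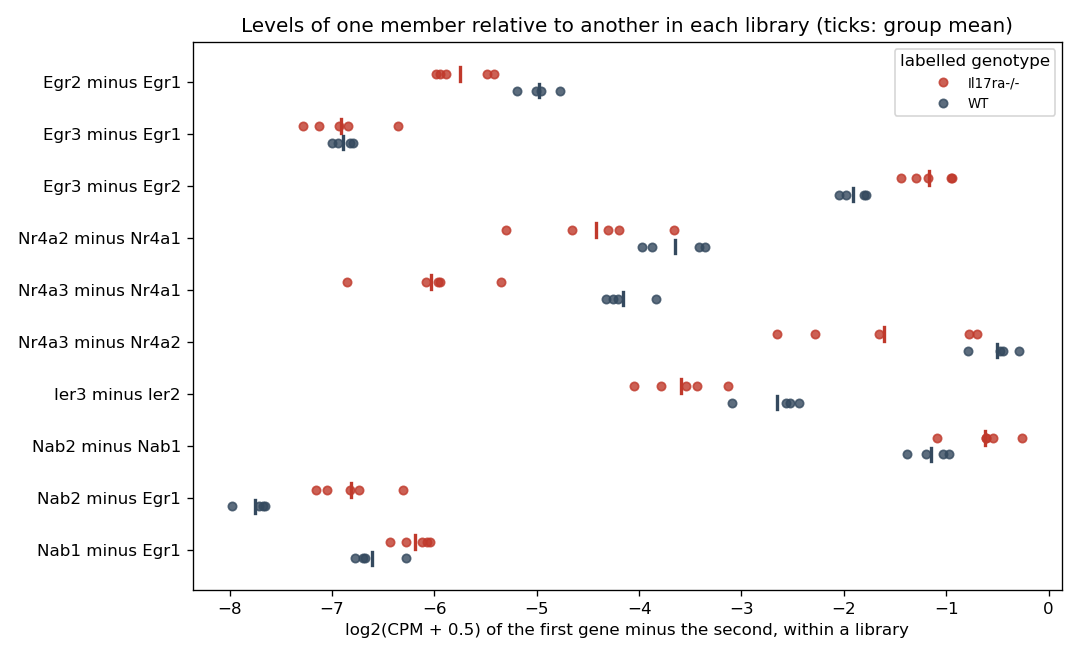
Level of one gene relative to another within each library (horizontal axis, difference of log2(CPM + 0.5)) for the 10 pairs compared, with libraries labelled Il17ra-/- in red above those labelled WT in dark blue and group means as ticks. The groups do not overlap for Egr2 minus Egr1, Egr3 minus Egr2, Nr4a3 minus Nr4a1, Ier3 minus Ier2 and Nab2 minus Egr1.

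Of the IER genes, Ier3 fell and Ier2 did not pass. Ier3 (IEX-1; chromosome 17, 35821684 to 35822923, plus strand), a stress-induced regulator of cell survival under NF-κB control, had 38.5, 61.4, 44.1, 49.5 and 67.1 CPM in Il17ra-/- replicates 1 to 5, against 103, 156, 75.5 and 84.7 CPM in WT replicates 1 to 4. WT replicate 2 was the highest, and the groups did not overlap. Its log2 fold change was −1.01 (SE 0.21, edgeR adjusted p = 0.0182), and −0.66 (edgeR adjusted p = 0.0303) without both WT replicate 2 and Il17ra-/- replicate 1. The edgeR adjusted p rose to 0.0526, 0.0593 and 0.0567 without Il17ra-/- replicate 1, 3 or 4.

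Ier2 (chromosome 8, 84661331 to 84662852, minus strand), a nuclear immediate early protein gene of a single exon, had 645, 670.2, 518, 687 and 593 CPM in Il17ra-/- replicates 1 to 5, against 609, 849, 649 and 491 CPM in WT replicates 1 to 4. The WT libraries spanned the whole range of the others. The log2 fold change was −0.06 (SE 0.15, edgeR adjusted p = 0.880; approximate 95% interval −0.35 to 0.23), and it was 0.10 without WT replicate 2. Ier3 minus Ier2 within a library was −3.59 ± 0.35 (SD, n = 5) in libraries labelled Il17ra-/- and −2.66 ± 0.30 (SD, n = 4) in those labelled WT, a difference of −0.93 (exact permutation p = 0.0159, adjusted over the 10 pairs p = 0.0317).

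**Figure D4:**
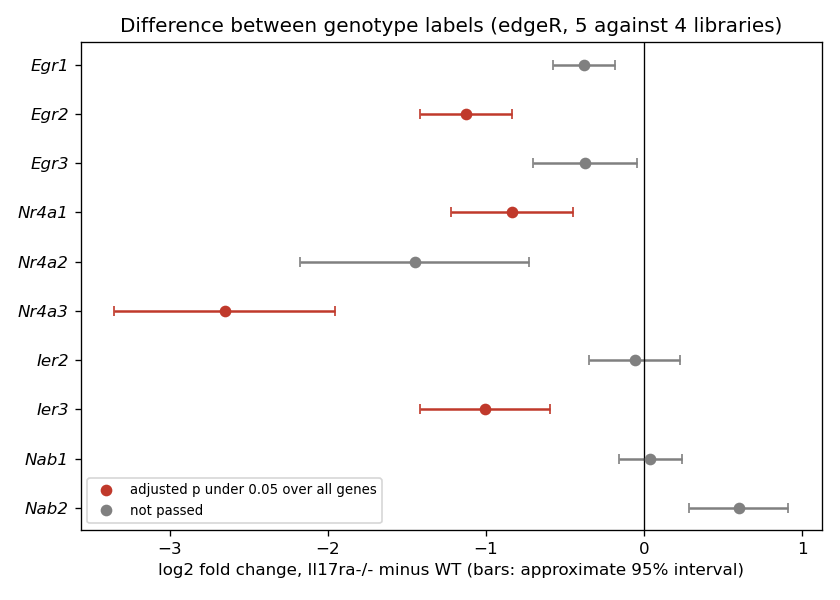
Log2 fold change of each of the 10 genes, libraries labelled Il17ra-/- minus those labelled WT (horizontal axis), with approximate 95% intervals that are not adjusted for the number of genes; red points passed the edgeR test over all genes and grey ones did not. Values run from −2.65 for Nr4a3 to 0.60 for Nab2.

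Per kilobase of exon, the 10 genes spanned a wide range of levels. In libraries labelled Il17ra-/-, Egr1 averaged 869 ± 62.6 CPM per kb (SD, n = 5), followed by Ier2 at 409 ± 44.9, Nr4a1 at 178 ± 58.1, Ier3 at 46.1 ± 10.5 and Egr2 at 21.6 ± 4.62 CPM per kb. Below these lay Nab1 at 12.9 ± 0.814, Nab2 at 11.8 ± 2.57, Nr4a2 at 8.04 ± 5.27, Egr3 at 7.41 ± 1.97 and Nr4a3 at 1.67 ± 1.07 CPM per kb. In libraries labelled WT the first 5 came in the same order, with Egr1 at 1130.2 ± 92.4, Ier2 at 427 ± 97.9, Nr4a1 at 318 ± 28.9, Ier3 at 92.7 ± 32.0 and Egr2 at 47.1 ± 4.88 CPM per kb (SD, n = 4). The others were Nr4a2 at 21.97 ± 4.13, Nab1 at 12.5 ± 1.16, Nr4a3 at 10.5 ± 1.87, Egr3 at 9.61 ± 0.925 and Nab2 at 7.81 ± 0.750 CPM per kb. Neighbours from Nab1 to Egr3 in the libraries labelled Il17ra-/-, and Nr4a3 and Egr3 in those labelled WT, differed by less than the larger of their SDs. Nr4a3 stood last in the libraries labelled Il17ra-/-, and above Egr3 and Nab2 in those labelled WT.

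The highest and lowest libraries differed from gene to gene. Il17ra-/- replicate 5 was the highest of its group for 5 genes, Egr2, Egr3, Nr4a1, Nr4a2 and Ier3, and Il17ra-/- replicate 3 was the lowest for 5, Egr1, Egr2, Egr3, Ier2 and Nab2. Il17ra-/- replicate 1, which lay apart on the second principal component, was the lowest for Nr4a1, Nr4a2 and Ier3 and the highest for Nab2. Il17ra-/- replicate 4 was the highest for Nr4a3, Ier2 and Nab1. Among the libraries labelled WT, replicate 1 was the highest for Egr1, Egr2, Nr4a2, Nr4a3 and Nab2, and replicate 3 the lowest for all 3 NR4A genes, Ier3 and both NAB genes. WT replicate 2 was the highest for Nr4a1, Ier2, Ier3 and Nab1 and the lowest for Egr1, and WT replicate 4 was the lowest for Egr2, Egr3 and Ier2.

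Beyond the 10 genes, 21 other immediate early genes were examined, a list written with earlier results of these data known. Over all tested genes 1.71% were called as lower, against 11 of these 21, while none of the 21 rose and 10 did not pass. Their median log2 fold change was −0.93 and 20 of the 21 values were negative. Those with the smallest p were Ier5, a relative of Ier2 (97.0 ± 20.0 CPM in 5 libraries labelled Il17ra-/- and 251 ± 45.0 CPM in 4 labelled WT, −1.37), Nfil3, a repressor under CREB control (−1.53), Crem, a CREB relative whose short form feeds back on CREB sites (−1.20), the nuclear factor gene Csrnp1 (−1.17) and the AP-1 subunit gene Fosl2 (−1.11), with edgeR adjusted p-values from 3.42e-04 to 0.00102. The most abundant of the list, Fos, which like Egr1 is a classic target of serum response factor, had a log2 fold change of −0.14 (edgeR adjusted p = 0.524). The summed level of the list was 17480.3 to 21218 CPM in libraries labelled Il17ra-/- and 23357 to 27593 CPM in those labelled WT, without overlap.

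Most of the transcription factors described as acting on these genes did not pass, which does not show equal levels between the labels. In simulated counts, 15.8% of 1.5-fold changes were recovered. Over all tested genes 3.06% were called, 1.35% as higher. Of 14 such transcription factors, 1 rose, none fell and 13 did not pass (median log2 fold change 0.13). Their summed level was 789 to 871 CPM in libraries labelled Il17ra-/- and 656 to 804 CPM in those labelled WT. The one that rose was Mef2c, which encodes a muscle and vessel factor of the MEF2 family that binds the Nr4a1 promoter in T cells, with 83.3 ± 10.1 CPM (SD, n = 5) in libraries labelled Il17ra-/- and 48.1 ± 7.24 CPM (SD, n = 4) in those labelled WT (0.79, SE 0.13, edgeR adjusted p = 0.00411). Mrtfb, a cofactor of serum response factor, had a log2 fold change of 0.47 (edgeR adjusted p = 0.169), Elk4, which binds beside it, one of −0.41 (edgeR adjusted p = 0.250), Mef2d one of 0.25 (edgeR adjusted p = 0.317) and Mef2a one of 0.23 (edgeR adjusted p = 0.344). Neither Srf (−0.06, edgeR adjusted p = 0.853) nor Creb1 (0.06, edgeR adjusted p = 0.845) passed. Of 5 tested partner genes none was called; Rxra, which encodes a dimer partner of NR4A1 and NR4A2, had a log2 fold change of 0.29 (edgeR adjusted p = 0.170) and Chd4 one of 0.28 (edgeR adjusted p = 0.410). Egr4, the fourth EGR gene, was left out by the filter, at 0.193 ± 0.433 CPM (SD, n = 5) in libraries labelled Il17ra-/- and 0.305 ± 0.242 CPM (SD, n = 4) in those labelled WT.

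Known targets of the 2 families were read against the 3.06% called over all tested genes. Of 9 genes described as EGR targets in other cells, 1 fell, none rose and 8 did not pass (median log2 fold change −0.18). Tgfb1 (−0.35, edgeR adjusted p = 0.169), Thbs1 (−0.48, edgeR adjusted p = 0.223), F3 (−0.25, edgeR adjusted p = 0.310) and Pdgfb (0.65, edgeR adjusted p = 0.416) did not pass. Of the NR4A genes themselves, Nr4a1 and Nr4a3 fell and Nr4a2 did not pass. Of 7 sugar metabolism genes that NR4A1 raises in muscle, 2 rose, none fell and 5 did not pass (median 0.61). The 2 were Slc2a4, the insulin-regulated glucose transporter, with 26.9 ± 6.42 CPM (SD, n = 5) in libraries labelled Il17ra-/- and 11.6 ± 3.80 CPM (SD, n = 4) in those labelled WT (1.21, SE 0.23, edgeR adjusted p = 0.0121), and Pfkm, the muscle phosphofructokinase (0.65, edgeR adjusted p = 0.0305), whose call held under 12 of 18 alternatives. Pygm (0.61, edgeR adjusted p = 0.118), Pgam2 (0.57, edgeR adjusted p = 0.204) and Fbp2 (1.19, edgeR adjusted p = 0.282) did not pass.

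**Figure D5:**
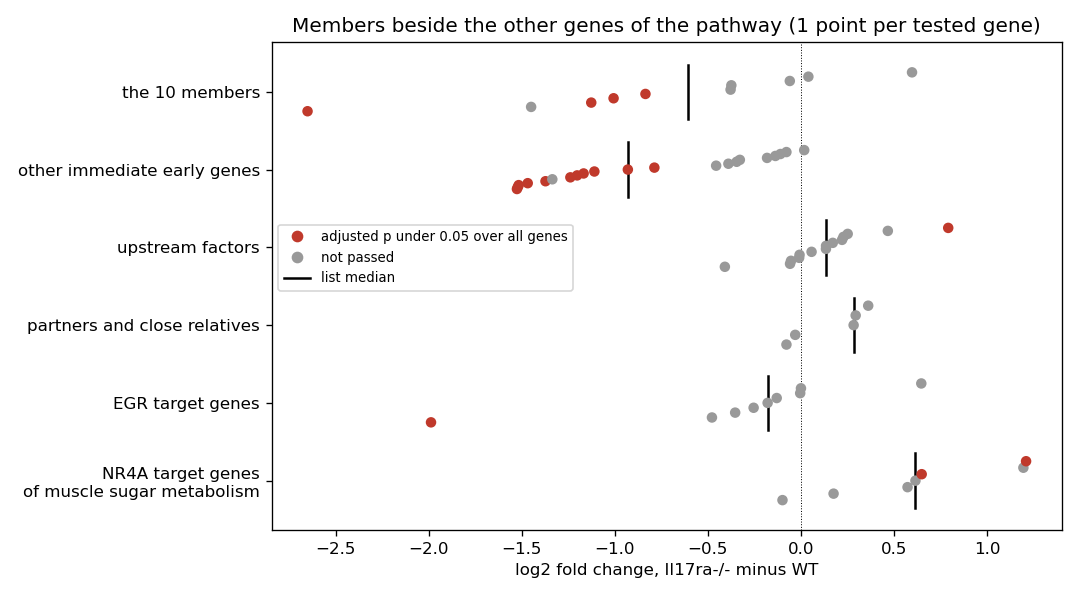
Log2 fold change, libraries labelled Il17ra-/- minus those labelled WT (horizontal axis), for the 10 genes and the 5 lists around them, with 1 point per tested gene, red where it passed the edgeR test over all genes, and the list median as a black line. The medians are −0.61 for the 10 genes, −0.93 for the other immediate early genes, 0.13 for the upstream factors, 0.28 for the partners, −0.18 for the EGR targets and 0.61 for the NR4A targets.

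Markers of some other cell types differed between the labels, while none of the endothelial genes was called. Over all tested genes 3.06% were called, 1.71% as lower and 1.35% as higher. The 7 myofibre genes summed to 2579 to 3470.0 CPM in libraries labelled Il17ra-/- and 927 to 2319 CPM in those labelled WT, without overlap, and 2 of the 7 rose and none fell; fibres also make Mef2c and the sugar metabolism genes. The 5 mural cell genes, of which 4 rose, summed to 1396 to 2003 CPM in libraries labelled Il17ra-/- and 852 to 1167 CPM in those labelled WT. The 9 macrophage genes summed to 9.23 to 17.9 CPM in libraries labelled Il17ra-/- and 23.9 to 39.7 CPM in those labelled WT; 1 of the 8 tested, the lysosomal marker Cd68, fell (−2.80, edgeR adjusted p = 2.17e-04), while Lyz2 did not pass (−0.15, edgeR adjusted p = 0.790). Cd68 alone averaged 2.58 ± 1.01 CPM (SD, n = 5) in libraries labelled Il17ra-/- and 17.9 ± 5.20 CPM (SD, n = 4) in those labelled WT, whereas 4 of the 8 tested genes had positive values and the list's median log2 fold change was 0.30. The 6 genes of fibro-adipogenic progenitors summed to 36664 to 50889 CPM in libraries labelled Il17ra-/- and 42592 to 47377 CPM in those labelled WT, and 1 of the 6 fell, the progenitor marker Pi16 (−0.55, edgeR adjusted p = 0.0207, groups without overlap); their defining marker Pdgfra had a log2 fold change of 0.23 (edgeR adjusted p = 0.491). The 5 endothelial genes summed to 301 to 379 CPM in libraries labelled Il17ra-/- and 261 to 456 CPM in those labelled WT. Most of this sum was Tek, at 294 ± 36.5 CPM (SD, n = 5) in libraries labelled Il17ra-/- and 295 ± 66.5 CPM (SD, n = 4) in those labelled WT. Pecam1 did not exceed 3.38 CPM. The neutrophil genes summed to at most 0.603 CPM in any library. The part of these cell types in the levels of the 10 genes was not tested.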

How the data were processed

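Bulk RNA of 9 libraries (5 labelled Il17ra-/-, 4 labelled WT) was sequenced after TruSeq RNA v2 preparation, a kit that does not mark strand, per the labels' protocols. The submitters' processing notes name STAR as aligner, with no version. The values deposited are raw counts of read pairs per gene, from featureCounts 1.6.0 run over GENCODE M21 exons (GRCm38), without strand and without reads that map to several places or genes, per the file headers.

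Library totals were 31.3 to 46.4 M counts, and 3 counts equal 0.0646 to 0.0959 CPM; such floors cover counting error only. Genes were filtered with filterByExpr, scaled with TMM and compared with edgeR 4.0.16 (R 4.3.3, quasi-likelihood, two-sided, genotype label only, Benjamini-Hochberg over 16039 genes). The SE was taken as |log2 fold change| divided by the root of the F statistic, and 95% intervals use a normal quantile of 1.96. Within-library differences were compared by exact permutation. Alternatives were RLE, upper-quartile and total scaling, no filter, at least 1 CPM in 4 libraries, DESeq2 1.42.0, limma voom 3.58.1, each library left out, WT 2 with Il17ra-/- 1 left out, and a replicate block. In simulated counts for this comparison over 15454 genes, the share recovered was 15.8% for 1.5-fold changes, 56.2% for 2-fold and 86.5% for 4-fold ones, with 3 false among 112 calls.

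Named genes are the 10 members, Il17ra, genes whose exons overlap a member, up to 5 of each pathway list by smallest p, and the defining markers Ptprc, Pecam1, Acta1 and Pdgfra; some genes this rule names are not reported here. Fos, Srf, Creb1, Egr4, Sox10, Pmp22, Pi16, Cd68 and Lyz2 are outside this rule and were chosen after their values were seen. The members and lists were chosen with earlier results of these data known. RefSeq promoter windows matched 7 of the 10 members by symbol.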

Additional observations from a re-analysis of the deposited data

Results flagged for a closer look

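In 6 of 98 groups of values examined, 1 library stood far from the rest of its own group; chance does this in about 1 in 20 groups. Il17ra stood at 284 CPM in Il17ra-/- replicate 4, against 181 to 199.8 CPM in the other 4 libraries with that label. WT replicate 2 held 4 of the 6: 318 CPM of Ier5 where the other WT libraries had 222 to 237 CPM, 248 CPM of Nfil3 where they had 152 to 156 CPM, 105 CPM of Chd4 where they had 183 to 199 CPM, and 309 CPM for the sum of the partner genes where they had 464 to 486 CPM. The summed genes of fibro-adipogenic progenitors stood at 47377 CPM in WT replicate 1 and at 42592 to 43180 CPM in the other WT libraries. None of the 10 early response genes had such a library.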

How the results depend on the processing

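Egr2 and Nr4a3 kept their direction and their call under all 18 alternatives, and Egr3, Ier2 and Nab1 stayed uncalled under all 18. DESeq2 called 1017 genes against 491 by edgeR, and 7 of the 10 genes against 4, adding Egr1 (−0.38), Nr4a2 (−1.45) and Nab2 (0.60). Without each library in turn, 275 to 567 genes and 3 to 5 of the 10 were called; the 275 came without Il17ra-/- replicate 3 and 323 without Il17ra-/- replicate 1. With scaling by library totals only, the median over all genes moved by 0.06, 41.3% of calls were lower against 55.8%, Nr4a1 lost its call (−0.76), Nab2 gained one (0.66) and Ier2 changed sign (0.0032). Without a filter, Nr4a2 (−1.43) and Nab2 (0.61) were called. Nr4a2 was also called with a minimum of 1 CPM in 4 libraries (−1.46) and with limma voom (−1.68). Without WT replicate 2 and Il17ra-/- replicate 1 together, Egr1 (−0.41) and Nr4a2 (−1.27) were called, Nr4a1 was not (−0.65), and Ier2 was at 0.084. The causes were not tested.

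Leaving out 1 library gave log2 fold changes of −0.43 to −0.34 for Egr1, −0.97 to −0.72 for Nr4a1, −1.89 to −1.22 for Nr4a2, −1.13 to −0.75 for Ier3, 0.48 to 0.70 for Nab2 and −0.17 to 0.10 for Ier2. The within-library differences kept their 5 calls under each scaling. Without 1 library the ranges were −0.85 to −0.69 for Egr2 minus Egr1, 0.69 to 0.81 for Egr3 minus Egr2, −2.05 to −1.68 for Nr4a3 minus Nr4a1, −1.08 to −0.82 for Ier3 minus Ier2, 0.81 to 1.03 for Nab2 minus Egr1, 0.43 to 0.64 for Nab2 minus Nab1 and −0.96 to −0.55 for Nr4a2 minus Nr4a1. The first 5 of these kept their calls without Il17ra-/- replicate 3 or 5 and lost them in the other 7 fits. Nab2 minus Nab1 passed without Il17ra-/- replicate 3, and Nr4a2 minus Nr4a1 without Il17ra-/- replicate 5, though neither passed with all libraries. Without 1 library, the smallest possible exact permutation p before adjustment was 0.0286 (an Il17ra-/- library left out) or 0.0357 (a WT library left out). Where only the first 5 pairs reached it, their exact permutation adjusted p was 0.0571 or 0.0714. They could pass only if further pairs reached it too, so the lost calls do not show dependence on the library left out. Egr3 minus Egr1 ran from −0.16 to 0.07 and was positive without WT replicate 2 (0.0010), WT replicate 3 (0.01), Il17ra-/- replicate 2 (0.072) or Il17ra-/- replicate 3 (0.03). Without WT replicate 2 and Il17ra-/- replicate 1 together, where no exact permutation p can fall under 0.0571, the values were −0.66 for Egr2 minus Egr1, 0.64 for Egr3 minus Egr2, −1.91 for Nr4a3 minus Nr4a1, −0.74 for Ier3 minus Ier2 and 0.85 for Nab2 minus Egr1.

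Libraries with the same replicate number did not deviate together (correlations from −0.02 to 0.06). A fit with the replicate number as a block over replicates 1 to 4 also leaves out Il17ra-/- replicate 5. It called 366 genes, with Nr4a2 among them (−1.98, edgeR adjusted p = 0.0105). The same libraries without a block gave 417 called genes, also with Nr4a2 (−1.89, edgeR adjusted p = 0.00448). Egr4, under 1 CPM in every library, was removed by the filter on low counts and not tested.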
